A study of Mus musculus with 9 samples.

Results

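A set of 9 genes that type I interferon is known to switch on (Stat2, Irf9, Irf7, Isg15, Ifit1, Ifit3, Oasl2, Rsad2 and Bst2) were followed in the hippocampus of mice that differ in IF1, the protein that inhibits the mitochondrial ATP synthase. They were chosen by name, and 10 probes carry these names among 39429 probes and 31093 gene names on the array. Hippocampal RNA came from male C57BL/6J mice aged 9 months, 3 of each genotype, and each mouse was hybridised to 1 one-colour Agilent array. IF1-KO mice lack Atpif1, the gene of IF1, where a Camk2a-driven Cre recombinase removed exon 3, so other cell types keep the gene. IF1-TG mice carry human IF1 under a tetracycline-regulated element driven by Camk2a-tTA. The labels give CRL mice only as controls and name neither Cre nor tTA for them. In whole tissue, fewer cells of a type and less RNA per cell cannot be told apart.

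Type I interferons are secreted when a cell senses foreign or misplaced nucleic acid, including DNA or RNA released from mitochondria. They bind the receptor pair Ifnar1 and Ifnar2, whose kinases Tyk2 and Jak1 phosphorylate Stat2. Stat2 and Irf9 are parts of a transcription factor that binds a DNA motif called the interferon-stimulated response element (ISRE) and switches on antiviral genes. In the brain, microglia, endothelial cells and neurons can all respond, and a low tonic level of the pathway keeps many of its genes expressed.

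The promoters show where the motif lies in these genes and are printed for Isg15 and Bst2, which carry overlapping copies, for Ifit1, which carries separate copies, and for Irf7, which carries none in the window. The ISRE was searched as GAAANNGAAA on both strands (TTTCNNTTTC on the other strand) in the 250 bases before and the 50 bases after each start site, from RefSeq on GRCm38.p6, and capitals mark the matches. The windows are chr4:156200769-156201068 (minus strand) for Isg15, chr8:71537423-71537722 (minus strand) for Bst2, chr19:34640639-34640938 (plus strand) for Ifit1 and chr7:141266375-141266674 (minus strand) for Irf7:
Isg15: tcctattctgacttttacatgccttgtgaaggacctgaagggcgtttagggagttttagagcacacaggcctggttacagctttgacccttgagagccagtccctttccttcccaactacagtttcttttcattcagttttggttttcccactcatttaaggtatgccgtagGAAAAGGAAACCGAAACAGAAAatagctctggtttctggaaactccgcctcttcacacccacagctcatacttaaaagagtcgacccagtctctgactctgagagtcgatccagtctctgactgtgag
Bst2: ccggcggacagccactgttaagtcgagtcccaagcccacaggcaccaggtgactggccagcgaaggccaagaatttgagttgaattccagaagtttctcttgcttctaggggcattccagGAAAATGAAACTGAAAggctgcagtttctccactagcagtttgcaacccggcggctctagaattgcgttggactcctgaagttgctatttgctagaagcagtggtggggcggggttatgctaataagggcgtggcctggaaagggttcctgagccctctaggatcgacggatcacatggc
Ifit1: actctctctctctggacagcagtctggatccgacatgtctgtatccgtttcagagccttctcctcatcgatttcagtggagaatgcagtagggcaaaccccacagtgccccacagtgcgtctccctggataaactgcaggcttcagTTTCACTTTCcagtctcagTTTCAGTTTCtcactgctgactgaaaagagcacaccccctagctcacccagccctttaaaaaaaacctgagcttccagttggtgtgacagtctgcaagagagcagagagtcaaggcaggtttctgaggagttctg
Irf7: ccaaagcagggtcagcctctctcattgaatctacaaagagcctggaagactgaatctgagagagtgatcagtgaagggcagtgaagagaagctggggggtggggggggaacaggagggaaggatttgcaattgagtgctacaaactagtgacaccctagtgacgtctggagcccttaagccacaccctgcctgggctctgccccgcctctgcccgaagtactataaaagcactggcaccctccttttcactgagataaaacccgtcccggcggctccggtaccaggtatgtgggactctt

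The motif was found in 6 of the 9 genes (Stat2, Isg15, Ifit1, Ifit3, Rsad2 and Bst2), against 3.44% of all 32851 promoter windows. Isg15 held 3 overlapping copies, beginning at positions -78 to -66 from the start site, and Ifit1 held 2 copies at positions -104 and -85 from it. Bst2 held 2 overlapping copies at positions -130 and -124, the first of which shares its leading bases with the only match of the STAT motif TTCNNNGAA (a palindrome, at -136), which 8.3% of all windows hold. No ISRE letters were found in the windows of Irf7, Oasl2 or either of the 2 start sites of Irf9.

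Levels are log2 processed intensities minus the 75th percentile of each array, so a level of 0 equals that percentile and levels are compared between mice and not between genes. All 9 genes passed the filter on dim probes, which asked that every array of some genotype show the probe well above background. A gene was called when its brightest probe reached a fold change of 1.5 with an unadjusted P value below 0.05 in limma. Values for each genotype are given for replicates 1, 2 and 3. On the array labelled IF1-KO replicate 1, Atpif1 read 6.44, against 5.20 and 5.53 on the other IF1-KO arrays and 6.19 to 6.34 on the CRL arrays. That array did not show the loss its label names, and values without it are given beside comparisons with IF1-KO that rest on it.

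No interferon response gene was called between IF1-KO and CRL mice or between IF1-TG and CRL mice, and Irf7 alone was called, as lower, when IF1-TG was set against IF1-KO. Of all genes tested, 1.02% were called between IF1-KO and CRL, 4.31% between IF1-TG and CRL and 3.71% between IF1-TG and IF1-KO (2.02% lower in IF1-TG). The median log2 difference of the 9 genes was 0.16 for IF1-KO against CRL, 0.10 for IF1-TG against CRL and 0.05 for IF1-TG against IF1-KO, beside medians of -0.01, 0.00 and 0.01 over all genes tested. Differences were above 0 for 5, 6 and 6 of the 9 genes in these comparisons, and for 46.8%, 49.9% and 52.4% of all genes. Single arrays moved and turned these medians. IF1-KO against CRL gave 0.04 when the first IF1-KO array was set aside, 0.08 without IF1-KO mouse 2, 0.06 without CRL mouse 3, -0.03 without CRL mouse 1 (3 of 9 above 0) and 0.27 without CRL mouse 2 (8 of 9 above 0). IF1-TG against CRL gave -0.03 without CRL mouse 1 (3 of 9 above 0), 0.01 without IF1-TG mouse 1, and 0.31 without CRL mouse 2 or IF1-TG mouse 3 (8 of 9 above 0 each). IF1-TG against IF1-KO gave 0.15 when the first IF1-KO array was set aside, 0.01 without IF1-KO mouse 3, -0.01 without IF1-TG mouse 1 and 0.16 without IF1-TG mouse 3. None of the 9 genes passed Benjamini-Hochberg adjustment over all probes in limma, and the smallest adjusted P among the 9 genes was 1, 0.574 and 0.661. At an unadjusted P below 0.05 there were 0, 1 and 1 of them, beside 2.57%, 8.06% and 6.91% of all genes. The mice did not overlap between genotypes for 0, 1 and 1 of them, beside 7.97%, 12% and 13.5% of all genes. The 3 comparisons share arrays and are not independent.

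**Figure D1:**
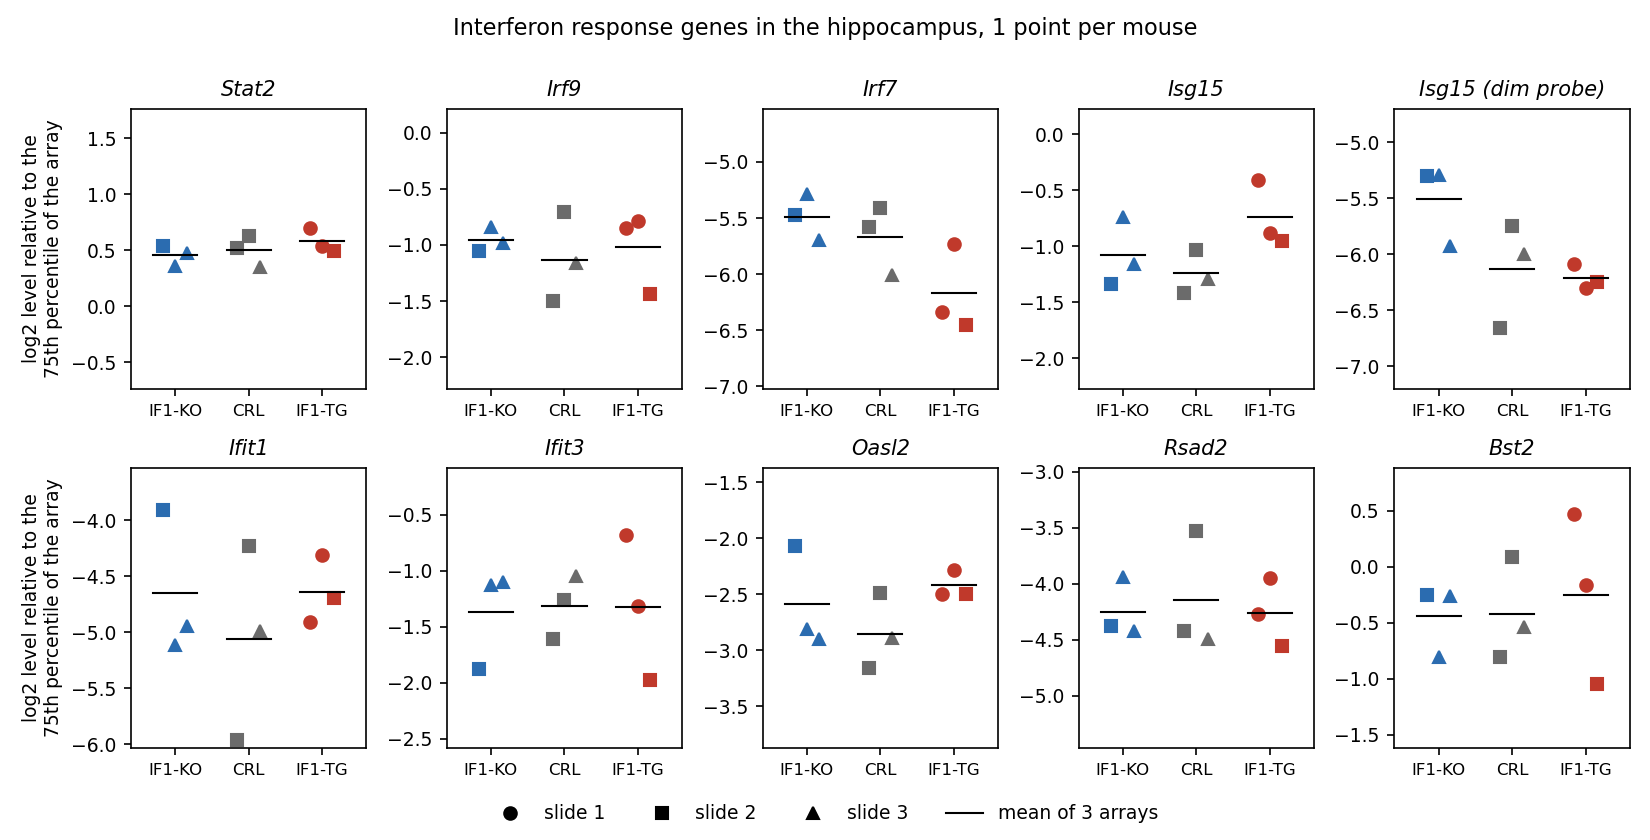
Log2 level of each interferon response gene minus the 75th percentile of its array (vertical axis, the same span in every panel) in the 3 IF1-KO, 3 CRL and 3 IF1-TG mice. Each point is a mouse, its shape gives the slide, and the line is the mean of 3 arrays. Irf7 lies lower in all 3 IF1-TG mice than in any IF1-KO mouse. Isg15 on its bright probe lies higher in all 3 IF1-TG mice than in any CRL mouse. On its dim probe, which was well above background on 0 IF1-TG arrays, all 3 IF1-TG mice lie lower than any IF1-KO mouse. The points of the other genes overlap between genotypes.

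Stat2 carries the activating domain of the transcription factor and Irf9 recognises its DNA motif. Stat2 (probe on mm9 chr10:127729834-127729893) read 0.54, 0.36 and 0.48 in IF1-KO, 0.52, 0.63 and 0.35 in CRL and 0.70, 0.54 and 0.49 in IF1-TG mice. It was the steadiest of the 9 genes, with a standard deviation within genotypes of 0.116, against a median of 0.242 over all genes tested. Its log2 difference between IF1-TG and CRL was 0.08 (95% interval -0.20 to 0.35), an interval that leaves out a fold change of 1.5 in either direction.

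Irf9 (mm9 chr14:56228806-56228865) read -1.05, -0.84 and -0.98 in IF1-KO, -1.50, -0.71 and -1.16 in CRL and -0.85, -0.79 and -1.44 in IF1-TG mice. The CRL mice spanned the whole range, and both the lowest and the highest mouse were controls. The log2 differences were 0.17 for IF1-KO against CRL and 0.10 for IF1-TG against CRL (standard error 0.235 each).

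Irf7 is the factor that amplifies the response by raising the expression of interferon alpha genes. Its probe, which the array annotation does not place on the genome, is shown because it gave the only call:
Irf7 probe: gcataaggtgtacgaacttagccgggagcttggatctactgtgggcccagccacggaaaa
Irf7 read -5.47, -5.29 and -5.70 in IF1-KO, -5.58, -5.41 and -6.01 in CRL and -6.34, -5.73 and -6.45 in IF1-TG mice. All 3 IF1-TG mice lay below all 3 IF1-KO mice, but IF1-TG replicate 2 lay within the range of the controls. The log2 difference between IF1-TG and IF1-KO was -0.69 (standard error 0.232, 95% interval -1.22 to -0.16), which is 1.61-fold lower in IF1-TG (unadjusted P = 0.0171, limma adjusted P = 0.661). The size of this fold is uncertain, because only 1 of the 3 IF1-TG arrays showed the probe well above background. Of all genes, 5% were lower without overlap in this comparison. Against CRL the difference was -0.51 (standard error 0.232, unadjusted P = 0.0588 in limma) and 1 of 9 pairs of mice was higher in IF1-TG. Between IF1-KO and CRL it was 0.18 with the same standard error.

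Irf7 was near the dim end of the array, and its probe was well above background on 3 IF1-KO, 3 CRL and 1 IF1-TG array, so it passed the filter through IF1-KO and CRL. A fit with no such filter must return the same difference from IF1-KO, -0.69 (unadjusted P = 0.0216 in limma), so it does not test the filter. The IF1-TG arrays were dimmer as a whole, with 66.7% to 69.7% of probes well above background, against 71.2% to 74.9% on the other arrays, and a log2 75th percentile of 10.60 to 10.75, against 10.89 to 11.39. Among the 3248 genes with a mean level below -5, 7.42% were called lower when IF1-TG was compared with IF1-KO, against 1.08% of the brighter genes, and the median difference was -0.12. The part of this shift in the Irf7 value was not tested. After normexp correction and quantile normalization the Irf7 difference was -0.16 (unadjusted P = 0.147 in limma), and the call ended. It was also lost when IF1-KO mouse 2 was left out (-0.59) and when IF1-TG mouse 1 (-0.60) or mouse 3 (-0.55) was. Setting aside the array labelled IF1-KO replicate 1 gave -0.68 (unadjusted P = 0.0426 in limma).

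**Figure D2:**
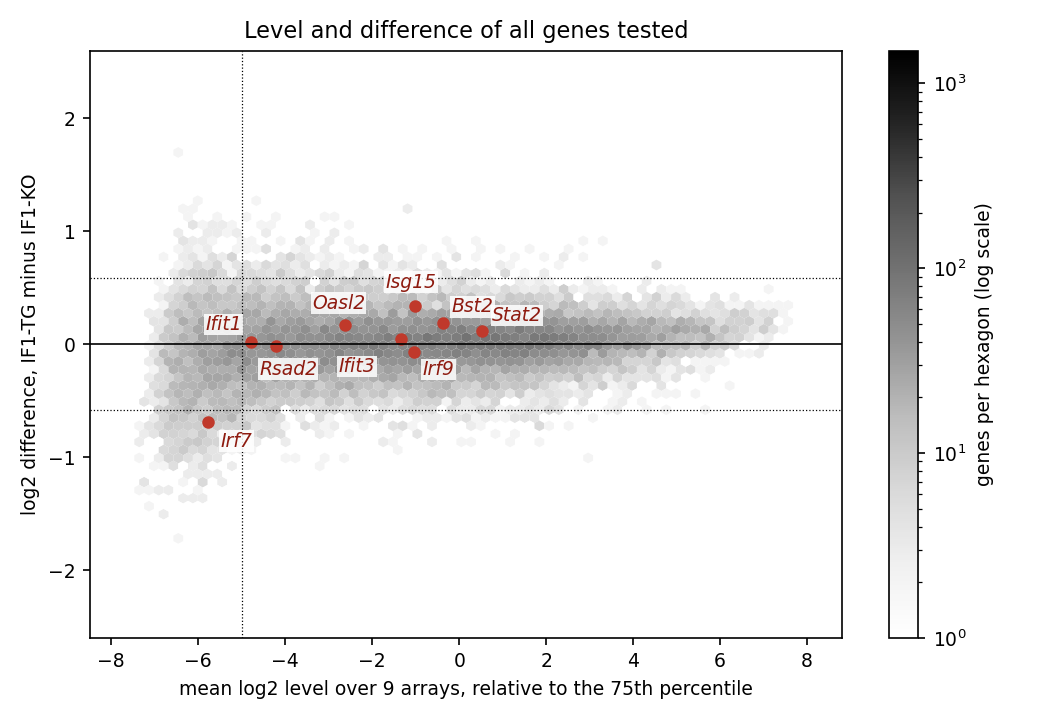
Mean log2 level over the 9 arrays (horizontal axis) and log2 difference of IF1-TG minus IF1-KO (vertical axis) of all genes tested, with the number of genes per hexagon in grey and the 9 interferon response genes in red. Dotted lines mark the fold change of 1.5 and a mean level of -5, and 4 genes lie beyond the vertical range. Irf7 is the one interferon response gene left of the vertical line and beyond the fold change, among the dim genes that lean to lower values in IF1-TG.

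Isg15 is a small ubiquitin-like protein that is attached to other proteins during the response. It was measured by 2 probes, which differed. The bright probe (mm9 chr4:155573649-155573708) read -1.34, -0.74 and -1.16 in IF1-KO, -1.42, -1.03 and -1.29 in CRL and -0.41, -0.88 and -0.95 in IF1-TG mice. All 3 IF1-TG mice lay above all 3 controls on this probe, as did 6.71% of all genes. The log2 difference of 0.50 (standard error 0.208, 95% interval 0.02 to 0.97) is 1.41-fold and did not reach the fold threshold (unadjusted P = 0.0415, limma adjusted P = 0.574). It reached the threshold without CRL replicate 2 (0.61) or IF1-TG replicate 3 (0.60), and was 0.33 without IF1-TG replicate 1.

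The dim Isg15 probe, which the array annotation does not place, is shown because it went another way:
Isg15 dim probe: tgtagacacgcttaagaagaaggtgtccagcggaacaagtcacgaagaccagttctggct
It read -5.30, -5.29 and -5.93 in IF1-KO, -6.66, -5.75 and -6.00 in CRL and -6.09, -6.30 and -6.25 in IF1-TG mice, and was well above background on 3 IF1-KO, 2 CRL and 0 IF1-TG arrays, so it passed the filter through IF1-KO alone. Against CRL, IF1-TG differed by -0.08 on the log2 scale (standard error 0.257, unadjusted P = 0.763 in limma), with overlap between the mice. Of 9 pairs of mice, 3 were higher in IF1-TG. No least fold is given against CRL, because only 2 of the 3 CRL arrays showed the probe well above background. A probe that passes through the group where it is high had to differ, so the comparisons with IF1-KO are a description. IF1-KO was 1.55-fold higher than CRL (log2 difference 0.63, standard error 0.257), with overlap between the mice, and 0.52 higher when the first IF1-KO array was set aside. IF1-TG was at least 1.6-fold lower than IF1-KO, or at least 1.49-fold when that array was set aside. In this bound each IF1-TG array counts at its own level or at its faintest signal well above background, whichever is higher. The bright probe gave 0.16 and 0.34 in these comparisons (0.30 and 0.20 when that array was set aside), and neither was called.

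Ifit1 and Ifit3 encode partner proteins that bind viral RNA. Ifit1 (mm9 chr19:34723796-34723855) read -3.91, -5.11 and -4.94 in IF1-KO, -5.96, -4.23 and -4.99 in CRL and -4.91, -4.31 and -4.69 in IF1-TG mice. It was the most variable of the 9 genes, with a standard deviation within genotypes of 0.651, higher than that of 94.8% of all genes. The highest mouse was the one labelled IF1-KO replicate 1 and the lowest was CRL replicate 1, so its difference of 0.41 between IF1-KO and CRL was 0.04 without the former. Between IF1-TG and IF1-KO it was 0.02, or 0.39 without that mouse. Against CRL, IF1-TG differed by 0.42 with a standard error of 0.456.

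Ifit3 (mm9 chr19:34663105-34663164) read -1.88, -1.13 and -1.10 in IF1-KO, -1.61, -1.26 and -1.05 in CRL and -0.68, -1.31 and -1.97 in IF1-TG mice. The highest and the lowest mouse were both IF1-TG, and the log2 difference from CRL was -0.01. Although Ifit1 and Ifit3 share the gene family and a pair of motif copies each, the mouse with the highest Ifit1 had the second lowest Ifit3.

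Oasl2 belongs to the oligoadenylate synthetase family, whose classical members sense double-stranded RNA. Its probe (mm9 chr5:115362168-115362227) read -2.07, -2.81 and -2.90 in IF1-KO, -3.16, -2.49 and -2.89 in CRL and -2.50, -2.28 and -2.50 in IF1-TG mice. The IF1-TG mice were close to each other and near the highest control. The log2 difference from CRL was 0.42 (standard error 0.247, unadjusted P = 0.123 in limma) and did not pass the test. Against CRL, IF1-KO differed by 0.26, or -0.01 when the first IF1-KO array was set aside.

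Rsad2, also called viperin, makes a modified nucleotide that stops viral RNA synthesis. It read -4.38, -3.94 and -4.42 in IF1-KO, -4.42, -3.53 and -4.49 in CRL and -4.27, -3.95 and -4.56 in IF1-TG mice (mm9 chr12:27127859-27127918). A control, CRL replicate 2, was highest, and the log2 differences from CRL were -0.10 in IF1-KO and -0.11 in IF1-TG.

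Bst2, also called tetherin, holds budding virus particles at the cell surface. Its probe (mm9 chr8:74058603-74058662) read -0.25, -0.81 and -0.26 in IF1-KO, -0.81, 0.09 and -0.54 in CRL and 0.47, -0.16 and -1.05 in IF1-TG mice. The IF1-TG mice held both the highest and the lowest value, 1.52 apart on the log2 scale, and the difference from CRL was 0.17 (standard error 0.386). Its standard deviation within genotypes, 0.547, was higher than that of 91.1% of all genes.

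**Figure D3:**
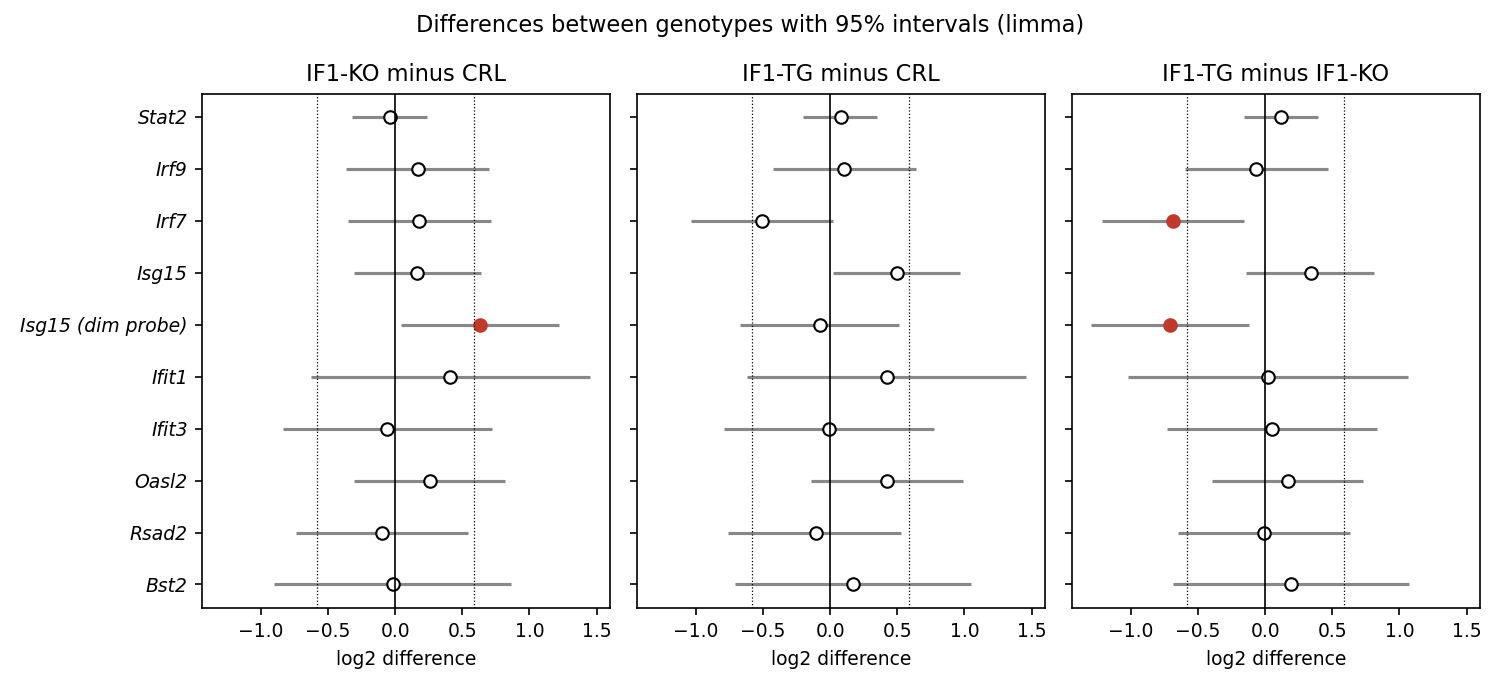
Log2 difference (horizontal axis) of each interferon response gene between genotypes in limma, with its 95% interval. Filled points passed both thresholds, and dotted lines mark the fold change of 1.5. Irf7 and the dim Isg15 probe are the only filled points, the latter as a description because the probe passed the filter through IF1-KO alone, while the intervals of Ifit1, Ifit3 and Bst2 extend past the fold change on both sides in every comparison.

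The arrays were spread over 3 slides. Slide 1 held only IF1-TG replicates 1 and 2, slide 2 held IF1-TG replicate 3 beside CRL replicates 1 and 2 and the array labelled IF1-KO replicate 1, and slide 3 held the remaining IF1-KO and CRL mice. Within slide 2 the log2 difference between IF1-TG and CRL was -0.96 for Irf7, 0.27 for Isg15, 0.41 for Ifit1, 0.33 for Oasl2, -0.09 for Stat2, -0.33 for Irf9, -0.54 for Ifit3, -0.59 for Rsad2 and -0.69 for Bst2. With slide as a fixed block the median of the 9 genes became -0.30 for IF1-TG against CRL (3 of 9 above 0). It became -0.37 for IF1-TG against IF1-KO (1 of 9 above 0). The medians over all genes in this fit were 0.04 and 0.03. Irf7 then differed by -0.88 between IF1-TG and CRL. Its level in IF1-TG replicate 3 was -6.45, below the faintest signal well above background on that array (-6.17). IF1-TG rests on 1 mouse in that fit, and the only IF1-KO array on its slide is the one labelled replicate 1. When that array was set aside in the blocked fit, the medians were -0.33 (3 of 9 above 0) and -0.48 (2 of 9 above 0). Irf7 in IF1-TG then differed by -0.96 from CRL and by -1.47 from IF1-KO.

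Mice of 1 genotype differed in the mean of the 9 genes. After centring each gene on its mean over the 9 mice, the mean of the 9 genes was highest in a control, CRL replicate 2 (0.30), followed by IF1-TG replicates 1 (0.21) and 2 (0.20), and lowest in another control, CRL replicate 1 (-0.37), and in IF1-TG replicate 3 (-0.28). CRL replicate 2 was above the mean in 8 genes and IF1-TG replicate 2 in all 9, while CRL replicate 3 was above it in 1. The IF1-KO mice stayed between -0.04 and 0.09. Irf9 followed the mean of the other 8 genes most closely (Pearson r = 0.932 over the 9 mice), then Bst2 (0.708) and Rsad2 (0.659). The values were lower for Oasl2 (0.505), Ifit1 (0.468), Stat2 (0.467), Isg15 (0.393) and Ifit3 (0.264). Irf7 did not follow the mean of the others (0.0721). These correlations describe 9 mice of 3 genotypes on 3 slides, the values of a mouse come from 1 array, and no test was made.

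**Figure D4:**
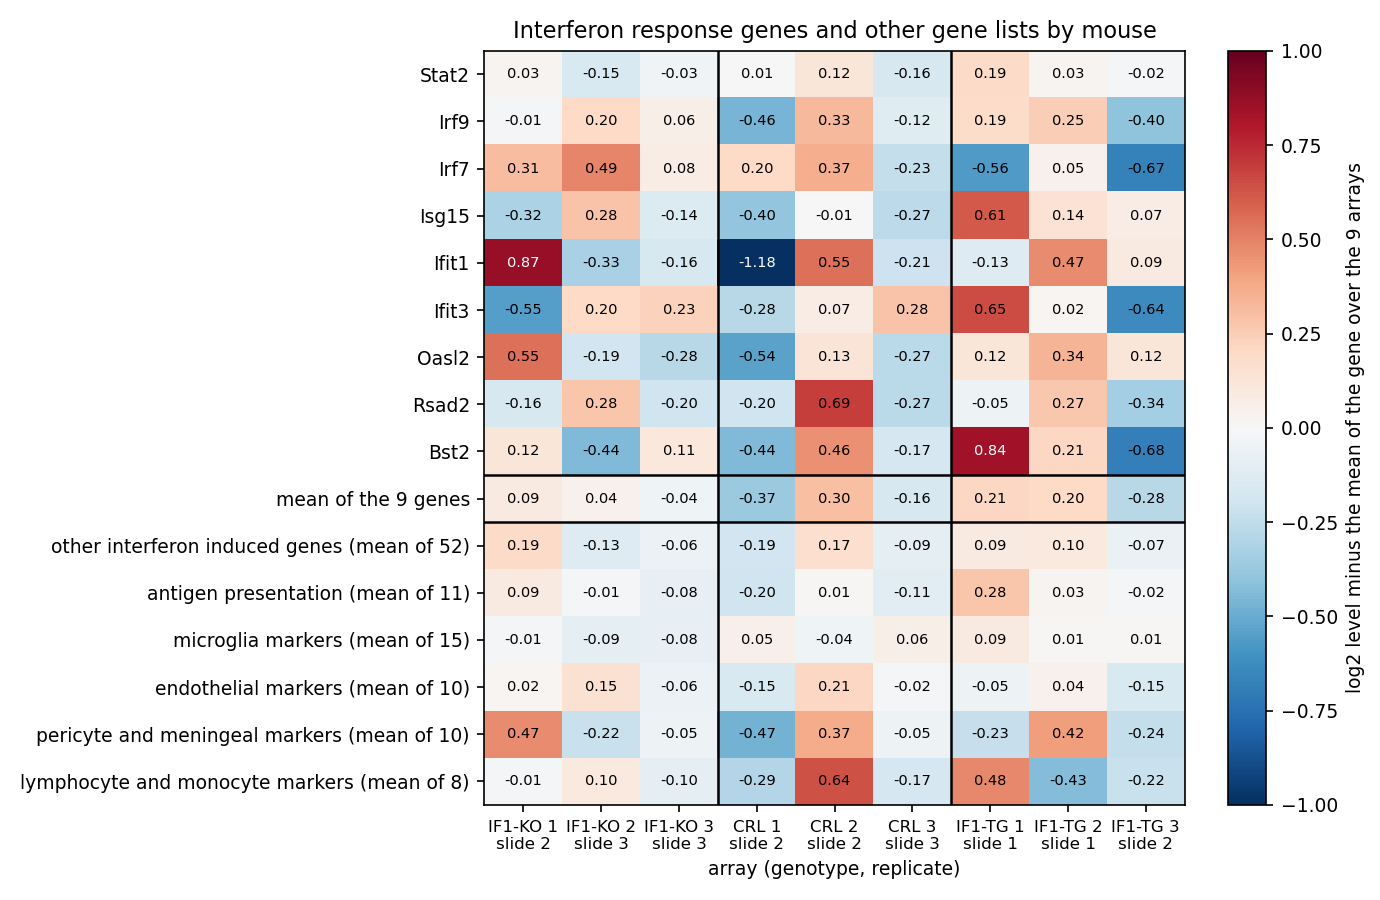
Log2 level minus the mean of the gene over the 9 arrays (colour, saturated beyond 1 in either direction, with each value printed) for the 9 interferon response genes, their mean and the means of other gene lists, by mouse. CRL replicates 1 and 2 differ from each other in nearly every interferon response gene, with means of -0.37 and 0.30, and the columns of a genotype are not alike.

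Markers of other cells also differed between these mice. The mean centred level of 10 pericyte and meningeal markers was 0.47 in the mouse labelled IF1-KO replicate 1, 0.37 in CRL replicate 2 and 0.42 in IF1-TG replicate 2, -0.47 in CRL replicate 1, and between -0.24 and -0.05 in the others. In CRL replicate 2 the 8 lymphocyte and monocyte markers (0.64), the 5 blood markers (2.68) and the 7 choroid plexus markers (2.31) were also high, and choroid plexus markers were highest in IF1-TG replicate 1 (3.46), where lymphocyte and monocyte markers were at 0.48 and pericyte and meningeal markers at -0.23. The 10 endothelial markers were highest in CRL replicate 2 (0.21) and lowest in CRL replicate 1 and IF1-TG replicate 3 (-0.15 each). Choroid plexus markers were at 2.13 in IF1-KO replicate 3, whose mean of the 9 genes was -0.04. IF1-TG replicate 2, with a mean of 0.20, had choroid plexus markers at -0.85 and lymphocyte and monocyte markers at -0.43. The 15 microglia markers, all detected on 9 arrays, stayed between -0.09 and 0.09. Their mean was -0.09 to -0.01 in IF1-KO, -0.04 to 0.06 in CRL and 0.01 to 0.09 in IF1-TG mice. Between IF1-TG and IF1-KO their median difference was 0.09, with 11 of 15 above 0, beside 52.4% of all genes. The part of these markers in the interferon response genes was not tested. All 9 neuron and 8 hippocampus markers were detected on every array, but the mean of the hippocampus markers was -0.64 in IF1-KO replicate 2, and their median difference from CRL was -0.34 in IF1-TG and -0.28 in IF1-KO. The 7 striatum markers were at 1.07 in CRL replicate 3 and between -0.33 and 0.18 elsewhere, and 1 of them, Adora2a, passed the thresholds against CRL in both genotypes (-0.96 in IF1-TG, beside 2.24% of all genes called lower, and -1.16 in IF1-KO, beside 0.434%). Adora2a read -1.87 in CRL replicate 3 against -3.33 and -3.61 in the other controls. Without that control its differences were -0.43, which was not called, and -0.63. The IF1-TG call was also lost without any single IF1-KO mouse or IF1-TG mouse 1 or 2 (-0.96 to -0.85), and the IF1-KO call without IF1-KO mouse 3 (-1.08). Their part was not tested either.

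The 10 other genes most like the mean of the 9 genes over the mice were a probe without a gene symbol (Pearson r = 0.971), Tmtc3 (0.955), Klhl30 (0.937), Klhl25 (0.936), Stat6 (0.926), Mtmr4 (0.92), Alg2 (0.917), P2rx3 (0.913), Stra6 (0.912) and Lmbrd1 (0.909). They were picked for this likeness among all genes tested. None of them was on the interferon lists below.

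The rest of the pathway was read from fixed lists. Of 10 interferon ligands, 4 were not well above background on any array and 5 could be tested. Past the thresholds were 2, Ifna2 and Ifna13, both lower in IF1-TG against IF1-KO, beside 2.02% of all genes and 7.42% of the dim genes. Ifna2 read -5.50, -5.11 and -5.09 in IF1-KO and -6.78, -6.71 and -5.90 in IF1-TG, where no array was well above background, so it was at least 2.22-fold lower (2.44-fold when the first IF1-KO array was set aside). Ifna2 passed the filter through IF1-KO alone, the group where it is high, and its difference is a description. Ifna13 differed by -0.99 (standard error 0.297), or -0.86 when the first IF1-KO array was set aside. The interferon alpha genes are near-identical in sequence, so these probes are uncertain, and both genes are dim like Irf7.

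Among the 5 receptors, Ifnar2, the receptor chain bound with highest affinity, was lower in IF1-TG against IF1-KO, 1 of 5 beside 2.02% of all genes. It read 0.18, 0.21 and 0.27 in IF1-KO, 0.07, 0.14 and 0.16 in CRL and -0.70, -0.14 and -0.49 in IF1-TG mice, and this probe was well above background on all 9 arrays. IF1-TG did not overlap with either group, as for 5% of all genes that were lower than in IF1-KO and 5.27% lower than in CRL. The log2 difference was -0.66 from IF1-KO (standard error 0.147, unadjusted P = 0.00169, limma adjusted P = 0.661), a call that ended without IF1-TG replicate 1 (-0.54) and held at -0.68 when the first IF1-KO array was set aside, and -0.56 from CRL (unadjusted P = 0.00444, limma adjusted P = 0.416), which is 1.48-fold and short of the fold threshold. Its partner Ifnar1 differed by -0.10 between IF1-TG and CRL.

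The 5 JAK and STAT genes had no call in any comparison. Jak1 differed by -0.24 between IF1-TG and CRL and by -0.09 between IF1-KO and CRL. Tyk2 was 0.27 higher in IF1-KO than in CRL and fell by 0.37 from IF1-KO to IF1-TG on the log2 scale, with neither reaching the fold threshold (0.25 and -0.35 when the first IF1-KO array was set aside). Of 14 tested sensors and adaptors, 1 was called, beside 2.24% of all genes and 8.04% of the dim genes lower in IF1-TG against CRL: Tlr3, the endosomal sensor of double-stranded RNA, was lower in IF1-TG than in CRL (log2 difference -0.70, standard error 0.197, unadjusted P = 0.00659 in limma), but its mean levels of -5.74 and -5.03 were also dim, and the call ended without IF1-TG replicate 2 (-0.53). None of 7 other interferon regulatory factors or 5 feedback regulators was called.

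Of 52 tested other interferon-induced genes, 2 were higher in IF1-TG than in CRL, beside 2.07% of all genes, and none was lower, with a list median of 0.05. Oas1a, an oligoadenylate synthetase, read -3.95, -3.54 and -3.17 in CRL and -2.29, -2.84 and -2.95 in IF1-TG mice (log2 difference 0.86, standard error 0.245, unadjusted P = 0.00718 in limma), and Ccl5, a chemokine that draws T cells, differed by 0.73 (standard error 0.292). Both had no overlap with the controls, as had 6.71% of all genes in that direction. Between IF1-TG and IF1-KO, Oas1a differed by 0.56 and was not called, but it was called at 0.69 (unadjusted P = 0.0389 in limma) when the first IF1-KO array was set aside. Its call against CRL was lost when its probes were averaged (0.49), and Ccl5 lost it when CRL mouse 1 or 3 or IF1-TG mouse 1 or 2 was left out (0.56 to 0.75). Ccl5 was also higher in IF1-TG than in IF1-KO (0.69, or 1.00 when the first IF1-KO array is set aside), beside 1.69% of all genes, with overlap, and the call was lost without IF1-KO replicate 2 (0.44). Between IF1-KO and CRL, 1 of the 52 was called, beside 0.589% of all genes and 1.48% of the dim genes called higher: Trim30a, a ubiquitin ligase that restrains inflammatory signalling, differed by 0.90 (standard error 0.365) with overlap, and lost the call without any single IF1-KO mouse, CRL replicate 1 or CRL replicate 2 (0.57 to 0.95).

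Antigen presentation genes, which interferons also raise, gave a list median of 0.21 on the log2 scale for IF1-TG against CRL, with 9 of 11 above 0, beside 49.9% of all genes, and 1 called higher, beside 2.07%. This was Psmb8, a subunit of the immunoproteasome, which ranged from -1.58 to -0.84 in CRL and from -0.79 to -0.34 in IF1-TG mice without overlap (difference 0.64, standard error 0.218, unadjusted P = 0.0178 in limma). The call was lost when CRL mouse 1 (0.42) or IF1-TG mouse 1 (0.57) or 2 (0.56) was left out. The mean centred level of the list was 0.28, 0.03 and -0.02 in IF1-TG and -0.20, 0.01 and -0.11 in CRL mice, and its median difference was 0.10 without IF1-TG replicate 1 and 0.14 without CRL replicate 1. The median was 0.09 for IF1-KO against CRL (7 of 11 above 0). It was 0.03 when the first IF1-KO array was set aside, -0.00 without CRL mouse 1, -0.03 without CRL mouse 3 (5 of 11 above 0 each) and 0.16 without CRL mouse 2. With slide as a fixed block Oas1a (0.64), Ccl5 (0.36) and Psmb8 (0.38) were not called in IF1-TG against CRL. No gene of any list passed adjustment.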

How the data were processed

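RNA from the hippocampus was measured on one-colour Agilent arrays, 3 mice for each of IF1-KO, CRL and IF1-TG. The deposited files hold intensities per spot from Agilent Feature Extraction 10.7.3.1, made by the authors, background-subtracted and detrended within each array and not normalized between arrays, together with marks of other kinds per spot (well above background, saturated, outlier), which were used as deposited. Genotypes and replicate numbers come from the labels, and slides from the array barcodes. Probe positions are on mm9.

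Control and outlier spots were left out, spots of a probe were averaged, and the 75th percentile of each array was subtracted from its log2 intensities. A probe was kept when every array of some genotype had it well above background (27991 probes, 21905 gene names). Genotype was fitted over the 9 arrays together with limma 3.58.1 (eBayes, R 4.3.3). The brightest kept probe stands for a gene. Correlations between replicates ranged from 0.983 to 0.992, no spot was saturated, and the number of arrays limits the precision. The mice of a genotype are separate animals.

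The 9 genes and the gene lists were chosen with earlier results of these data known. The named genes are the 9 genes, Atpif1, genes of the pathway lists past the thresholds, Ifnar1, Ifnar2, Jak1, Tyk2 and the 10 genes of most similar pattern, and 1 other pathway gene that this rule names is not reported here. Adora2a was named after its values were seen. Cell type lists cover microglia, endothelial, pericyte and meningeal, astrocyte, oligodendrocyte, neuron, hippocampus, lymphocyte and monocyte, blood, choroid plexus and striatum markers. The steps were tested on simulated data. Alternatives were normexp (offset 50) with quantile normalization, quantile normalization alone, other filters on dim probes, slide or replicate number as a block, fits of 2 genotypes, trend and robust options, other rules for several probes, and each array left out in turn. The split by brightness and the alternatives for the other pathway genes, Adora2a, the antigen presentation list and the dim Isg15 probe, and the slide block without the first IF1-KO array, were chosen after seeing the data.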

Additional observations from a re-analysis of the deposited data

How the results depend on the processing

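With all arrays kept, 250 of 267 recomputed differences of the 9 genes kept their direction and their side of the thresholds, and 15 reversed. With 1 array left out, 206 of 243 did so and 30 reversed. The count of called genes between IF1-TG and IF1-KO (1) fell to 0 with normexp and quantile normalization and to 0 with probes well above background on all 9 arrays, a filter that removes Irf7, and rose to 2 when any kept probe could carry the call. Under that last rule the count also rose from 0 to 1 between IF1-KO and CRL. The added gene in both comparisons is Isg15 by its dim probe. That probe passed the filter through IF1-KO alone, so both rises are a description. Between IF1-TG and CRL the count rose from 0 to 1 by unadjusted P alone (Isg15, bright probe). The count with slide as a fixed block is left out, because IF1-TG rests on 1 mouse in that fit. With 1 array left out the counts ranged from 0 to 1 for IF1-TG against CRL, stayed at 0 for IF1-KO against CRL and ranged from 0 to 1 for IF1-TG against IF1-KO.

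The following differences changed sign, and the cause was not tested. With normexp they were Ifit3 (0.01 for IF1-KO against CRL and -0.03 for IF1-TG against IF1-KO) and Ifit1 (-0.00 for IF1-TG against IF1-KO). With slide as a fixed block they were, against CRL, Stat2 (-0.07), Irf9 (-0.30) and Bst2 (-0.71) in IF1-TG and Stat2 (0.02) and Bst2 (0.06) in IF1-KO, and between IF1-TG and IF1-KO Stat2 (-0.09), Ifit1 (-0.37), Ifit3 (-0.22), Oasl2 (-0.19) and Bst2 (-0.77). With slide as a random block Ifit1 was -0.02 and with averaged probes Isg15 was -0.19, both for IF1-TG against IF1-KO. With 1 array left out, IF1-TG against CRL ranged from -0.09 to 0.31 for Irf9, -0.03 to 0.84 for Ifit1, -0.33 to 0.31 for Ifit3, -0.28 to 0.20 for Rsad2 and -0.19 to 0.57 for Bst2. IF1-KO against CRL ranged from -0.12 to 0.02 for Stat2, -0.02 to 0.38 for Irf9, -0.00 to 0.30 for Isg15, -0.04 to 0.82 for Ifit1, -0.21 to 0.19 for Ifit3, -0.01 to 0.43 for Oasl2, -0.27 to 0.21 for Rsad2 and -0.21 to 0.24 for Bst2. IF1-TG against IF1-KO ranged from -0.19 to 0.14 for Irf9, -0.21 to 0.39 for Ifit1, -0.27 to 0.38 for Ifit3, -0.17 to 0.14 for Rsad2 and -0.17 to 0.59 for Bst2.

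Arrays with the same replicate number did not deviate together (correlations of deviations from -0.165 to 0.116). These values show no pairing of the mice by number, but they cannot exclude one. With the replicate block the counts of called genes were 0 for IF1-TG against CRL, 0 for IF1-KO against CRL and 1 for IF1-TG against IF1-KO. With 3 arrays per genotype the intervals of the 9 genes reached from -1.22 to 1.46, and Irf7 and the dim Isg15 probe lay near the background of the IF1-TG arrays.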
